A study of Mus musculus with 56 samples.

Results

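The daily transcript rhythms of 9 genes of nicotinamide adenine dinucleotide (NAD) metabolism were described in gastrocnemius, a calf muscle, of mice fed only by day (daytime-restricted feeding, DRF) or only by night (nighttime-restricted feeding, NRF). The genes were Nampt, Nmrk1, Nmrk2, Nmnat1, Nmnat3, Nnmt, Sirt1, Sirt3 and Parp1. They were picked by name as makers and users of NAD, by matching their Entrez gene IDs to mouse symbols, and are 9 of the 19072 genes in the deposited expression table. All 9 passed the filter of a mean of at least 1 CPM, which 12025 genes met. CPM here means recovered reads per 1000000 of the authors' library size, as inferred from the deposited values.

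Both groups of mice were C57BL/6J females. They entered the study at 7 weeks of age, lived in 12 h of light and 12 h of dark, and had chow freely for 7 days. Food was then limited to the day (DRF) or to the night (NRF) for 7 days, and the mice were 9 weeks old at sampling. Muscle was sampled every 4 h in both regimens over 7 times, ZT0 through ZT24 (ZT is zeitgeber time, in hours from lights on), with 4 libraries per regimen and time and 56 in all. The sources used here do not give the exact hours of food access. Nothing in the labels says that the 4 libraries of a group came from separate animals, so p-values measure the spread between these libraries.

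NAD is the electron carrier of glycolysis and mitochondrial oxidation, and it is also a substrate that is broken down by sirtuin deacetylases and by poly(ADP-ribose) polymerases. Muscle remakes much of its NAD from nicotinamide by the salvage route. Nampt makes nicotinamide mononucleotide in the rate-limiting step, and the nicotinamide riboside kinases Nmrk1 and Nmrk2 make the same product from nicotinamide riboside. The adenylyl transferases Nmnat1 (nuclear) and Nmnat3 (mitochondrial) then complete NAD. Nnmt methylates nicotinamide and so takes it out of the route. Nampt is a known target of the circadian clock in other mouse tissues, where NAD and Sirt1 activity feed back on the clock.

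The promoter windows below show the start sites of the genes on which the results turn, Nmrk2 and Nampt, and of Sirt1, the only member with 2 CACGTG E-boxes in its window. Windows run from 250 bases before to 50 bases after the annotated start, come from RefSeq on GRCm38.p6 and are printed on the gene's strand. Windows were found for 8 of the 9 members. The Nmrk2 window is placed on a start inside the gene's span, so few bases before the gene's outer end (81202265) were searched. Capitals mark a match to a searched motif.
Nmrk2, chr10:81201988-81202287, minus strand: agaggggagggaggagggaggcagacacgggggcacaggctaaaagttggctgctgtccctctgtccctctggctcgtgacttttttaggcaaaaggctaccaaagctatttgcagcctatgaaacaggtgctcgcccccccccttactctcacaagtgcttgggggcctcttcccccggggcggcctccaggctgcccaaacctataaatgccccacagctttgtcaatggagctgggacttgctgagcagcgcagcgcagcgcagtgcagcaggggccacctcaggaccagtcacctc
Nampt, chr12:32820085-32820384, plus strand: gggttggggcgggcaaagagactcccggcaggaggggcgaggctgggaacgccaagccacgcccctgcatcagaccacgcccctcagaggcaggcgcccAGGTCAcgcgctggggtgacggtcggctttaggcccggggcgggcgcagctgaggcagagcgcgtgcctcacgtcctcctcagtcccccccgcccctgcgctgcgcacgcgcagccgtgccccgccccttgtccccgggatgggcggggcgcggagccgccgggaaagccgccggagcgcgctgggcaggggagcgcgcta
Sirt1, chr10:63338986-63339285, minus strand: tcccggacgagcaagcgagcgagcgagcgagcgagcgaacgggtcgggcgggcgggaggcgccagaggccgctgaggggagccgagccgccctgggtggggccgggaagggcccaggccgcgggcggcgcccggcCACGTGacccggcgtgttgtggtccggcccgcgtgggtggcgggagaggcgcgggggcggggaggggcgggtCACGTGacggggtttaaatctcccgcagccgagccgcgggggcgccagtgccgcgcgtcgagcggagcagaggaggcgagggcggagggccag

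Both strands were searched for the E-box CACGTG, its variant CACGTT, the nuclear receptor half-site AGGTCA, the FoxO element GTAAACA and the D-box core TTATGNAA. CACGTG was present in 7.15% of the 32851 mouse promoter windows, CACGTT in 4.68%, AGGTCA in 16.3%, GTAAACA in 3.65% and TTATGNAA in 3.38%. The Sirt1 window held CACGTG at -115 and at -43 relative to the start, and the Parp1 window held it at -49. The Nampt window held AGGTCA at -151, and the Nmnat3 window held it at 23 bases after the start. None of these letters was found in the windows of Nmrk2, Nmrk1, Nmnat1 and Sirt3. A match is a description of the sequence and not of a bound site.

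The libraries held 28173235 to 36183625 recovered reads, and the lowest count of a member in a library was 38 reads, for Nnmt. Markers of muscle fibre were high throughout, with a summed level of 104790 to 217214 CPM in DRF and 95990 to 190544 CPM in NRF for 6 of 6 genes. Slow-fibre markers varied widely within groups, at 30.4 to 3377 CPM in DRF and 69.7 to 3540 CPM in NRF for 5 of 5 genes. The 7 adipocyte markers summed to 165 to 808 CPM in DRF and 189 to 684 CPM in NRF. Of the neutrophil markers S100a8, S100a9 and Elane were recovered and none reached a mean of 1 CPM. Their sum was 0 to 6.55 CPM in DRF and 0 to 0.480 CPM in NRF, and the highest was in DRF ZT16 replicate 1, which also had the highest red blood cell marker sum (1233 CPM). A library that stood apart, DRF ZT20 replicate 1, had correlations of 0.953 to 0.966 with the other 3 of its group, the lowest of any pairs within a group, against 0.984 to 0.990 among those 3. In whole muscle, fewer cells of a type and less RNA per cell cannot be told apart.

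Levels of different genes were compared per kilobase of the gene length that the deposited values imply. Nampt was the most abundant member, at 27.7 ± 4.205 CPM per kilobase in DRF and 30.1 ± 3.44 in NRF (SD, n = 28 libraries each). Nmrk2 followed at 14.5 ± 6.38 in DRF and 14.2 ± 8.60 in NRF, then Parp1 at 13.0 ± 1.32 in DRF and 12.9 ± 1.45 in NRF. Nmnat1 stood at 4.17 ± 0.389 in DRF and 4.07 ± 0.328 in NRF. Nmnat3, Sirt3, Sirt1, Nnmt and Nmrk1 came next in that order, with DRF means of 2.99, 2.75, 1.99, 1.64 and 1.49 and NRF means of 2.95, 2.63, 2.06, 1.69 and 1.49 CPM per kilobase. Nmrk2 and Parp1 overlapped within 1 SD, as did each neighbouring pair from Nmnat3 down to Nmrk1.

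**Figure D1:**
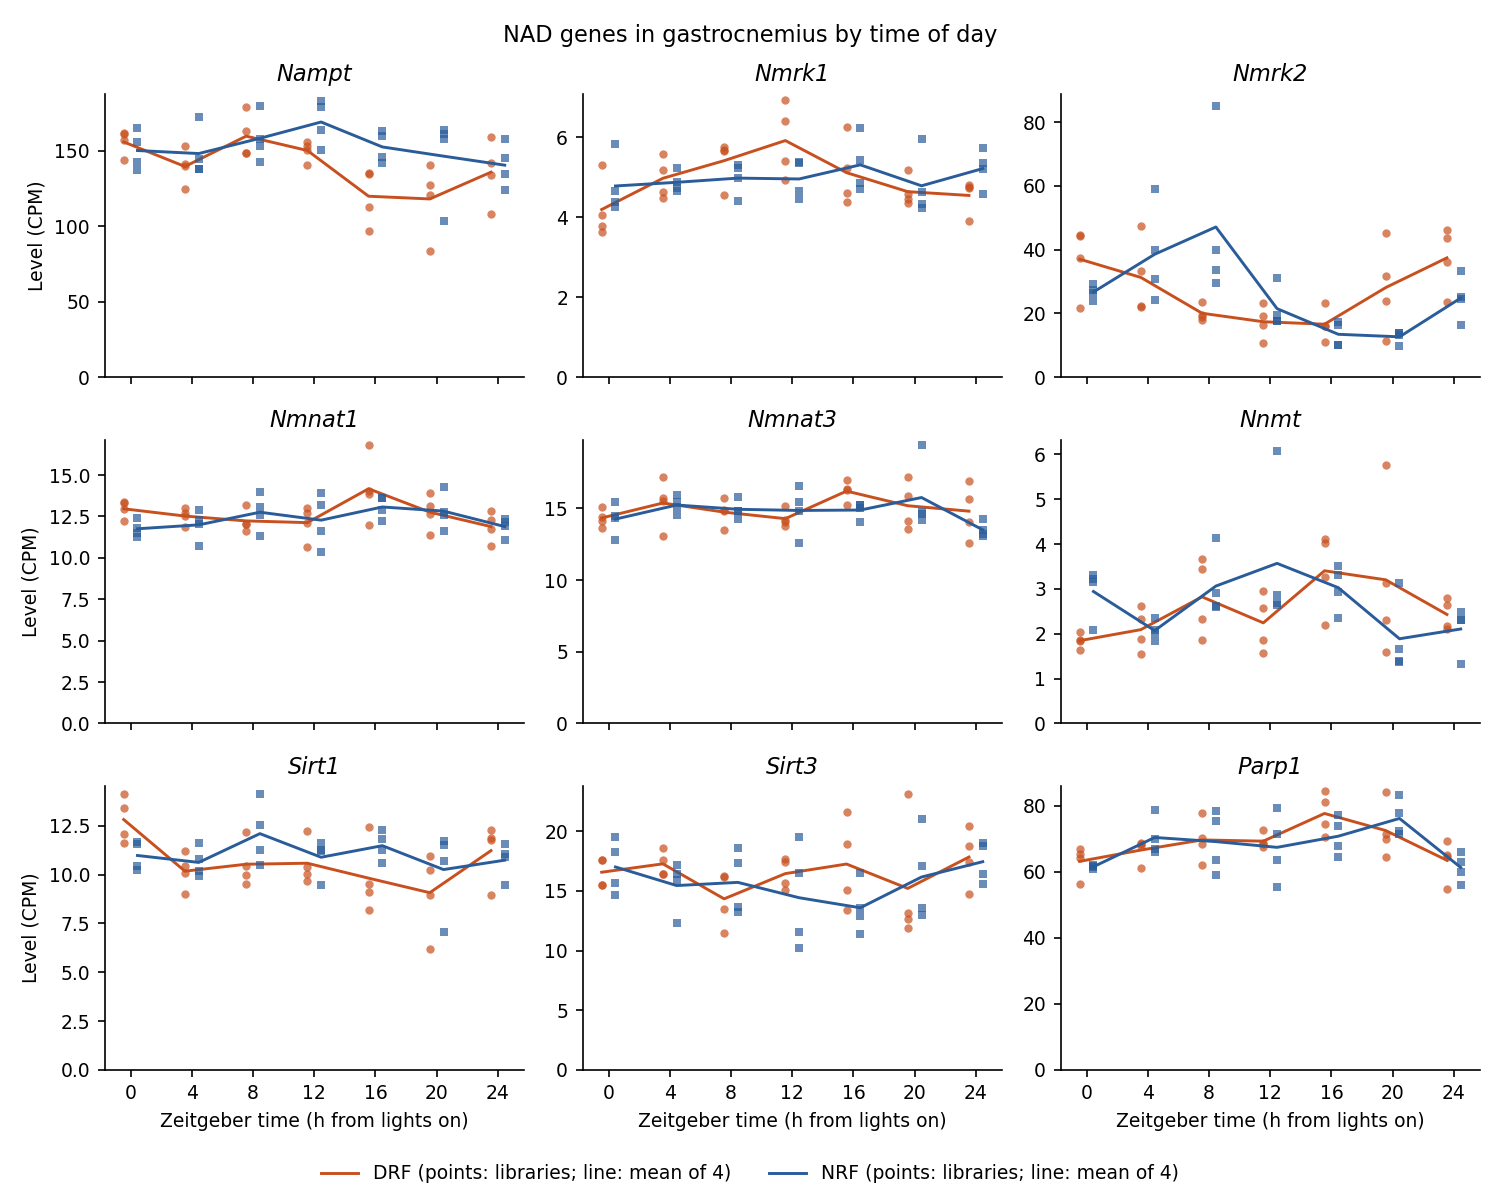
Level of the 9 genes in CPM (vertical axis, from 0) at each zeitgeber time in hours (horizontal axis). Circles are DRF libraries, squares are NRF libraries and lines join the means of 4 libraries. The Nmrk2 lines cross between ZT0 and ZT4 and again between ZT12 and ZT16, while the Nampt lines part at ZT16 and ZT20, where the DRF means were the lower ones.

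A 24 h cosine curve was fitted per regimen on log2(CPM + 1), its swing being the fitted peak minus the fitted trough in log2 units, and the cosine and sine terms were tested with limma over all 12025 genes with Benjamini-Hochberg adjustment at 0.05. In DRF the rhythm test passed for 4 of the 9 members, Nmrk2, Nmrk1, Nampt and Parp1, beside 48.7% of all tested genes. In NRF it passed for 1 of the 9, Nmrk2, beside 15.1% of all tested genes. The median fitted swing over the 9 members was 0.23 log2 units in DRF and 0.13 in NRF, beside 0.26 in DRF and 0.16 in NRF over all tested genes. Whether DRF and NRF had the same curve by clock time was tested as well, and the difference passed for 1 of the 9 members, Nmrk2, beside 13.1% of all tested genes.

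Nmrk2 (gene 69564, chromosome 10, 81198170 to 81202265 on GRCm38.p6), the riboside kinase found mainly in muscle, had the largest daily swing of the 9 genes in both regimens, and its high came earlier in DRF. Its counts were decimal in 5 of the 56 libraries. In DRF it was high around lights on and low in the first part of the night, with means ± SD (n = 4 each) of 37.0 ± 10.7 CPM at ZT0, 17.4 ± 5.21 at ZT12, 16.6 ± 4.96 at ZT16 and 37.4 ± 10.1 at ZT24. In NRF it was highest in the light phase and lowest late at night, at 26.7 ± 2.27 CPM at ZT0, 47.1 ± 25.8 at ZT8, 12.6 ± 1.97 at ZT20 and 24.8 ± 6.88 at ZT24. The highest mean was 2.25 times the lowest in DRF and 3.73 times in NRF. The NRF ZT8 mean held 1 library, replicate 1, at 85.3 CPM, and the median there was 36.8 CPM. Without that library the fitted NRF swing was 1.64 log2 units and the swing difference, DRF minus NRF, was -0.47.

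The single DRF libraries had 21.8, 37.2, 44.3 and 44.8 CPM of Nmrk2 at ZT0, 47.4, 22.4, 22.1 and 33.2 at ZT4, and 19.0, 23.7, 19.5 and 18.0 at ZT8. They had 16.3, 19.3, 23.1 and 10.8 CPM at ZT12 and 15.9, 23.2, 11.2 and 16.2 at ZT16. They had 45.3, 31.9, 24.01 and 11.3 CPM at ZT20 and 23.6, 46.3, 36.2 and 43.6 at ZT24. Thus ZT8, ZT12 and ZT16 held no DRF library above 23.7 CPM, and the libraries of ZT20 were spread most widely.

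The single NRF libraries had 26.4, 27.4, 29.2 and 23.8 CPM at ZT0, 30.9, 39.9, 59.1 and 24.4 at ZT4, and 85.3, 33.7, 39.8 and 29.7 at ZT8. They had 19.6, 31.2, 17.5 and 17.7 CPM at ZT12 and 10.1, 16.4, 9.99 and 17.3 at ZT16. They had 9.73, 13.95, 13.2 and 13.7 CPM at ZT20 and 33.2, 16.4, 24.7 and 25.0 at ZT24. At ZT8 every DRF library lay below every NRF library, and at ZT20 the groups overlapped through the lowest DRF library.

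The fitted Nmrk2 peak was at ZT1.01 (SE 0.785 h) in DRF and at ZT5.72 (SE 0.451 h) in NRF. The DRF peak was thus 4.71 h earlier on the clock (shift -4.71 h, 95% interval -6.53 to -2.90 h). The swing was 1.17 ± 0.22 log2 units in DRF (SE, adjusted p = 1.21e-04, a fitted 2.25-fold) and 1.81 ± 0.24 in NRF (adjusted p = 4.12e-07, a fitted 3.50-fold). The curves differed by limma (adjusted p = 4.85e-04). The swing taken alone differed by -0.64 log2 units, DRF minus NRF, with a 95% interval of -1.29 to 0.01 that includes 0.

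**Figure D2:**
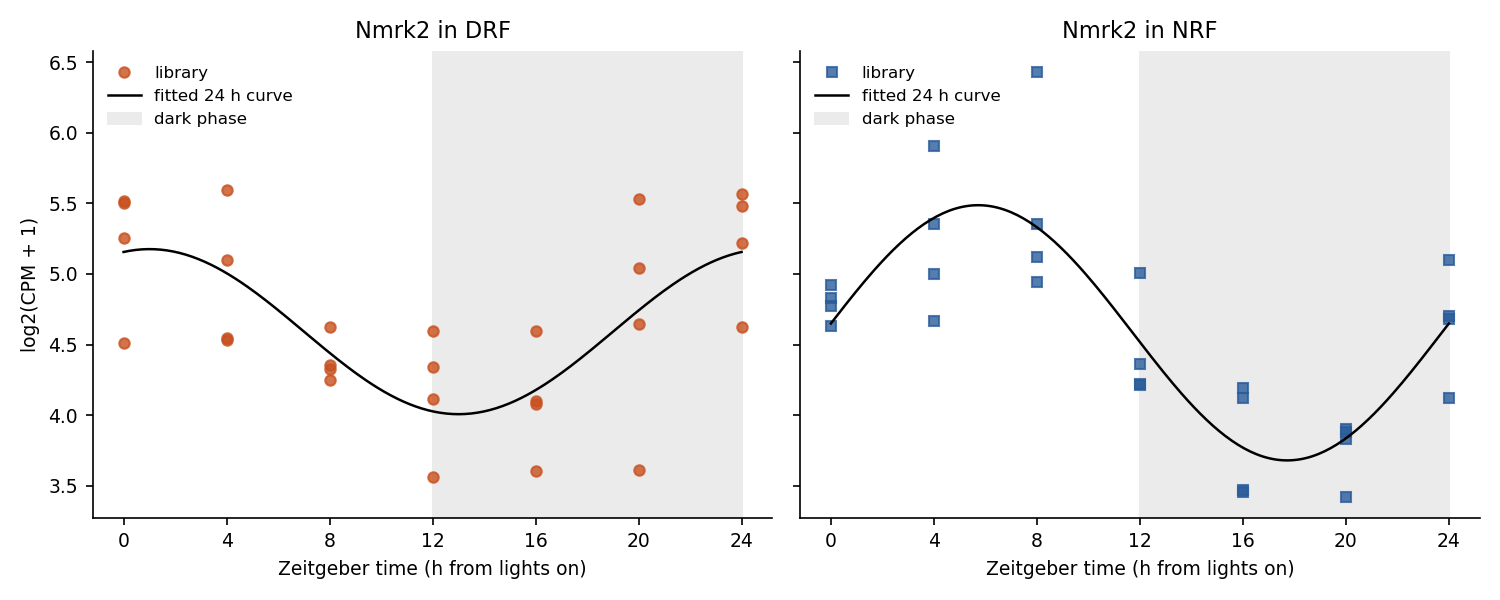
Nmrk2 on the log2(CPM + 1) scale (vertical axis) against zeitgeber time in hours, DRF on the left and NRF on the right. Points are libraries, the line is the fitted 24 h curve and grey marks the dark phase. The DRF curve peaks at ZT1.01 and the NRF curve at ZT5.72.

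The Nmrk2 shift was also set against a move of 12 h. A second test asked whether the DRF curve equals the NRF curve moved by 12 h. Whether the rhythm followed food was not tested, since the exact hours of food access are not given. A difference in swing alone can also reject the equality. That equality was rejected for Nmrk2 (adjusted p = 2.23e-07). It was rejected for 5 of the 9 members, Nmrk2, Nampt, Nmrk1, Parp1 and Nnmt, beside 45.8% of all tested genes. So the Nmrk2 curves differed from each other on the clock and also after a 12 h move. Over 70 alternative settings the peak shift stayed between -5.33 and -4.04 h, and the clock-time difference passed in all of them.

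In the authors' deposited table of rhythm tests, Nmrk2 had a meta2d q-value of 0.00744 and a phase of 1.00 h in DRF, and a q-value of 1.99e-05 and a phase of 5.76 h in NRF. The same phase of 1.00 h was given for Sirt1 in DRF and Sirt3 in NRF, which had no q-value under 0.05. Nmrk1 was the other member under 0.05 in the authors' deposited table, with a q-value of 0.0124 and a phase of 11.3 h in DRF. Nampt had a q-value of 0.294 in DRF and 1 in NRF in the authors' deposited table. Of 16119 genes in the authors' deposited table, 2557 had a q-value under 0.05 in DRF and 1154 in NRF.

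Genes whose 14 group means followed Nmrk2 most closely were Cog2, Appl2, Wdr53, Ccdc14 and Etl4, with Pearson's r of 0.908, 0.907, 0.891, 0.889 and 0.870 on log2(CPM + 1). The ranking is over genes outside the 9 members with whole-read counts, and all genes were measured in the same libraries. For scale, Appl2, an adaptor protein of endosomes, had a fitted peak at ZT1.52 in DRF and ZT5.20 in NRF with a swing of 0.46 and 0.40 log2 units. The core clock gene Arntl peaked at ZT22.6 in DRF and ZT22.9 in NRF, and Per2 at ZT13.0 in DRF and ZT13.6 in NRF. Of 5 clock or fasting genes (Arntl, Nr1d1, Dbp, Per2 and Pdk4), 3 passed the clock-time difference, beside 13.1% of all tested genes. Pdk4, a fasting-induced kinase that restrains pyruvate dehydrogenase, peaked at ZT22.7 in DRF with a swing of 6.24 log2 units, and had no called rhythm in NRF (adjusted p = 0.539).

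Nampt (gene 59027, chromosome 12, 32820335 to 32853369), the rate-limiting salvage enzyme, had a lower average over the day in DRF. The group means were furthest apart at ZT16 and ZT20, where the single-time tests missed the threshold. The DRF groups at these times, and those at ZT12 and ZT24, also had lower relative levels of longer genes. Spearman's rho of gene length with level relative to each gene's mean averaged -0.200 in DRF ZT16 and -0.190 in DRF ZT20. It averaged -0.141 in DRF ZT12 and -0.128 in DRF ZT24. It averaged 0.071 in NRF ZT16 and 0.118 in NRF ZT20. Nampt had an implied gene length of 5054 bases. With the length trend removed, its swing in DRF was 0.36 log2 units. Means ± SD (n = 4 each) in DRF were 155.8 ± 8.28 CPM at ZT0, 139.5 ± 11.7 at ZT4, 159.6 ± 14.5 at ZT8, 150.1 ± 6.78 at ZT12, 119.8 ± 18.7 at ZT16, 118.0 ± 24.5 at ZT20 and 135.8 ± 21.5 at ZT24. In NRF they were 150.1 ± 12.5 CPM at ZT0, 148.1 ± 16.3 at ZT4, 158.2 ± 15.6 at ZT8, 169.0 ± 14.9 at ZT12, 152.5 ± 10.2 at ZT16, 146.4 ± 28.9 at ZT20 and 140.4 ± 14.4 at ZT24. The DRF mean was the lower one at 5 of the 7 times.

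At ZT16 the DRF libraries had 113, 135, 96.5 and 134 CPM of Nampt, against 159, 163, 142 and 146 CPM in NRF. At ZT20 they had 83.6, 127, 121 and 141 CPM in DRF, against 158, 164, 161 and 103 CPM in NRF. The groups were apart at ZT16 and overlapped at ZT20, where 1 library of each regimen was far below the other 3. The low DRF library is replicate 1, which stood apart, and without it the Nampt swing in DRF was 0.31 log2 units (limma adjusted p = 0.0349) and the average difference -0.12 (0.0636). At ZT8 the DRF libraries had 163, 148, 149 and 179 CPM, against 158, 179.6, 153 and 142 CPM in NRF, and the groups overlapped. The log2 difference at ZT16 was -0.36 ± 0.13 (SE) and missed the threshold (limma, adjusted p = 0.0572).

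Averaged over the day, Nampt was 0.15 log2 units lower in DRF (difference -0.15 ± 0.05, SE, 95% interval -0.25 to -0.05, limma adjusted p = 0.0329), a fold of 0.901. It was the only member of the 9 whose average passed, beside 15.9% of all tested genes. The call sat near the threshold. It was lost with ZT24 left out (-0.14, adjusted p = 0.0696), with a gene-length trend removed (-0.13, 0.067) and without any 1 of 8 libraries (-0.14 to -0.12, 0.0503 to 0.0636). In the other members the average difference ran from -0.09 for Sirt1 to 0.08 for Sirt3. Scaling by total recovered reads instead of the authors' library size moved the median of all genes by -0.07 and the Nampt difference to -0.23 (adjusted p = 0.00334). Under it 196 genes were higher and 3303 lower on average in DRF, against 1004 higher and 905 lower with the authors' library sizes.

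The Nampt rhythm passed the test in DRF, with a peak at ZT6.49 (SE 0.902 h) and a swing of 0.40 ± 0.11 log2 units (limma adjusted p = 0.00741, a fitted 1.32-fold). In NRF the fitted swing was 0.20 ± 0.09 with adjusted p = 0.332. The test of the difference by clock time missed the threshold (adjusted p = 0.172), with a swing difference of 0.20 log2 units, DRF minus NRF (95% interval -0.08 to 0.48). The equality after a 12 h move was rejected (adjusted p = 0.0146), a call that was lost with library weights (0.0539). Genes most like Nampt over the 14 group means were Gmps, Vps35, Sos1, Ppp1r3a and Sf3b1, with r of 0.955, 0.950, 0.949, 0.949 and 0.948.

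**Figure D3:**
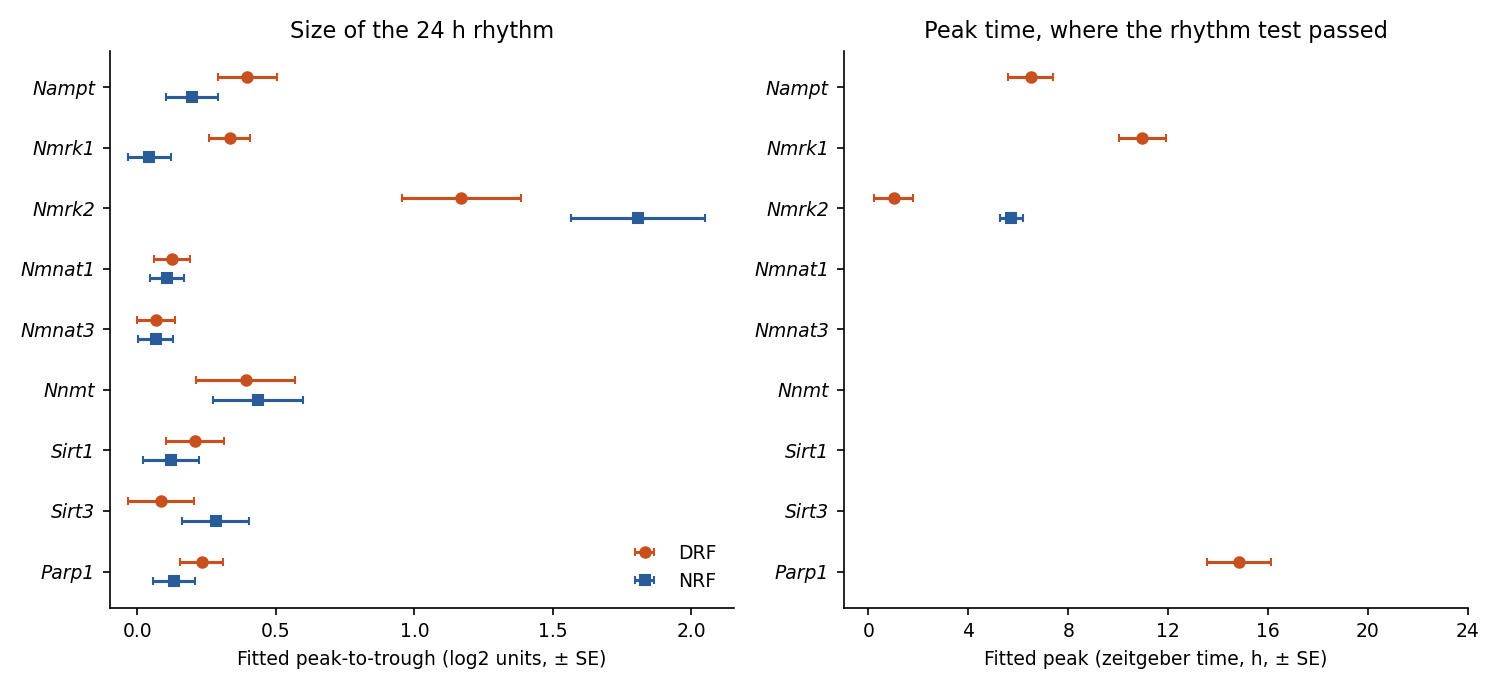
Fitted swing in log2 units with SE (left) and fitted peak in zeitgeber hours with SE, drawn where the rhythm test passed (right), for the 9 genes. Circles are DRF and squares NRF. Nmrk2 stands apart at 1.17 in DRF and 1.81 in NRF, while the other members lie between 0.04 and 0.44.

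Nmrk1 (gene 225994, chromosome 19, 18632016 to 18652428), the riboside kinase of most tissues, had a small midday to evening high in DRF. Its counts were decimal in 12 of the 56 libraries, as when reads are split between loci, so its values are uncertain. The DRF libraries had 3.62, 4.06, 3.77 and 5.31 CPM at ZT0 and 5.40, 4.93, 6.39 and 6.92 at ZT12, against 4.66, 4.38, 5.82 and 4.25 CPM at ZT0 and 5.34, 4.44, 4.66 and 5.38 at ZT12 in NRF. Within DRF the times overlapped only through the highest ZT0 library, and within NRF they overlapped broadly. The swing was 0.33 ± 0.07 log2 units in DRF (peak at ZT11.0, limma adjusted p = 0.0013) and 0.04 ± 0.08 in NRF (adjusted p = 0.93). The clock-time difference missed the threshold (adjusted p = 0.0956; swing difference 0.29 log2 units, DRF minus NRF, 95% interval 0.08 to 0.50) and passed with library weights (0.018). The 12 h equality was rejected (adjusted p = 0.0145), but not without ZT0 (0.0797) or with a slow-fibre covariate (0.0593).

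Neither adenylyl transferase passed a rhythm test. Nmnat1 (chromosome 4) ranged over 10.7 to 16.8 CPM in DRF, with a median of 12.7, and over 10.4 to 14.3 CPM in NRF, with a median of 12.3. Its fitted swing was 0.12 ± 0.07 log2 units in DRF (limma adjusted p = 0.244) and 0.11 ± 0.06 in NRF (0.471). Nmnat3 (chromosome 9) ranged over 12.6 to 17.2 CPM in DRF and 12.6 to 19.4 CPM in NRF, with a swing of 0.07 in both regimens (adjusted p = 0.67 in DRF and 0.766 in NRF). The 95% interval of the DRF minus NRF difference in Nmnat3 swing was -0.18 to 0.19 log2 units.

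Nnmt (gene 18113, chromosome 9), at low levels, had 1.56 to 5.76 CPM in DRF (median 2.32) and 1.32 to 6.08 CPM in NRF (median 2.60). The rhythm test was missed in DRF (swing 0.39 ± 0.18, limma adjusted p = 0.148) and in NRF (0.44 ± 0.16, adjusted p = 0.145). It was passed in DRF after quantile normalization (swing 0.45, adjusted p = 0.0494) and in NRF without ZT0 (0.65, 0.0318). The 12 h equality was rejected narrowly (adjusted p = 0.0404). With the adipocyte marker score as a covariate that test gave adjusted p = 0.553, but the call was also lost with no filter (0.0546), by total reads (0.171), with the length trend removed (0.0623), with the slow-fibre covariate (0.0571) and without ZT24 (0.0877). It was kept in 8 of 14 such settings, and leaving out any 1 of 14 libraries gave 0.0511 to 0.0878.

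Nnmt moved with the adipocyte markers among libraries of the same group. A marker score is the mean over the markers of log2(CPM + 1), each marker taken relative to its own mean, so every marker counts alike. Deviations from the group mean of Nnmt and of the score over 7 adipocyte markers had Pearson's r of 0.776 and Spearman's rho of 0.742 over 56 libraries (permutation within groups, p = 1e-05 for each, the smallest that 100000 resamples can give, adjusted p = 0.000202 over 81 relations of 9 genes and 9 marker lists). Within DRF r was 0.811 and within NRF 0.730, and without the 2 farthest libraries it was 0.741. The DRF ZT20 library with the most adipocyte marker RNA (808 CPM) had 5.76 CPM of Nnmt, against 1.59 to 3.14 CPM in the other 3 libraries of that group.

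Sirt1 (gene 93759, chromosome 10, 63319005 to 63339035), the nuclear deacetylase, had 6.17 to 14.1 CPM in DRF (median 10.4) and 7.07 to 14.1 CPM in NRF (median 11.2). No rhythm passed, with a swing of 0.21 ± 0.10 log2 units in DRF (limma adjusted p = 0.201) and 0.12 ± 0.10 in NRF (0.708). Scaling by total reads gave a called rhythm in DRF (swing 0.39, adjusted p = 0.0355) and a called lower average in DRF (-0.16, adjusted p = 0.0387).

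Sirt3 (chromosome 7), the mitochondrial deacetylase, had 11.4 to 23.1 CPM in DRF (median 16.3) and 10.2 to 20.999 CPM in NRF (median 16.2). Its rhythm test was missed in DRF (0.09 ± 0.12, limma adjusted p = 0.804) and in NRF (0.28 ± 0.12, 0.238). With library weights the NRF rhythm passed (swing 0.33, adjusted p = 0.0354). The 12 h equality, not rejected with the authors' library sizes (0.167), was rejected with library weights (0.0292) and by total reads (0.0484). Sirt3 deviations within groups went with the slow-fibre score (r = 0.734, rho = 0.788), the endothelial score (r = 0.782, rho = 0.801), the muscle fibre score (r = 0.704, rho = 0.664) and the red blood cell score (r = 0.608, rho = 0.643). The permutation p was 1e-05 to 2e-05 for each (adjusted p = 0.000202 to 0.000324), and r without the 2 farthest libraries was 0.626 to 0.756. With the log2 summed CPM of the markers in place of the score, a choice made after seeing the data, the muscle fibre relation turned sign (r = -0.494, rho = -0.449, permutation p = 0.00114 for r, adjusted 0.0013 over 8 relations), while the slow-fibre (0.735), endothelial (0.785) and red blood cell (0.620) relations kept theirs. No direction with muscle fibre markers is therefore given. Without DRF ZT20 replicate 1 the slow-fibre score relation had r of 0.697. In the DRF ZT20 group the libraries had 3377, 30.4, 336 and 906 CPM of slow-fibre markers and 23.1, 13.2, 12.7 and 11.9 CPM of Sirt3, so the first stood apart in both and the other 3 did not follow the relation.

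**Figure D4:**
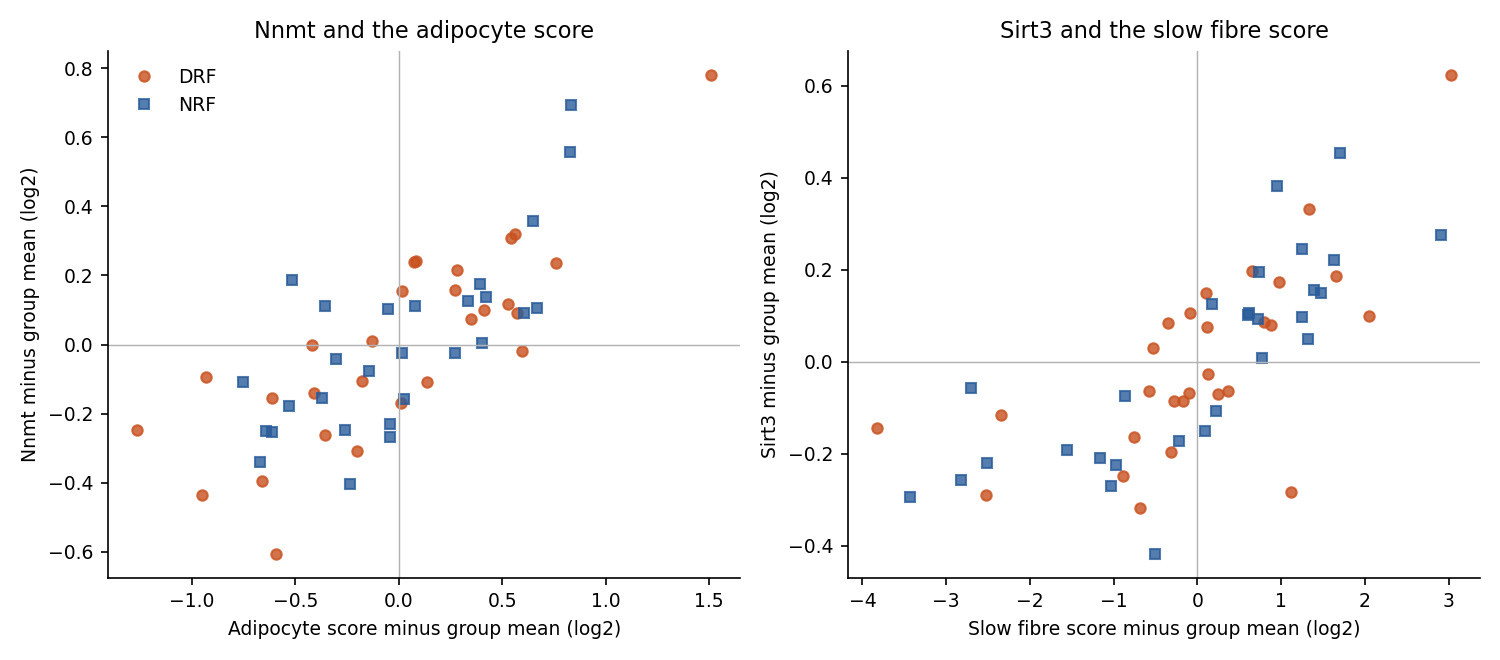
Deviation of each library from its group mean, in log2 units, for Nnmt against the adipocyte score (left) and Sirt3 against the slow-fibre score (right). Circles are DRF libraries and squares NRF libraries, 56 in all. Both clouds run upward, with r of 0.776 for Nnmt and 0.734 for Sirt3.

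Parp1 (gene 11545, chromosome 1, 180568891 to 180600999), the main DNA damage-activated polymerase and a large user of NAD, had 54.9 to 84.4 CPM in DRF (median 68.4) and 55.4 to 83.2 CPM in NRF (median 66.5). The DRF libraries had 64.1, 66.8, 56.1 and 65.5 CPM at ZT0 and 70.4, 74.5, 84.4 and 81.2 at ZT16, against 60.8, 62.0, 61.5 and 61.8 CPM at ZT0 and 67.9, 64.3, 73.8 and 77.1 at ZT16 in NRF. In both regimens each ZT16 library was above each ZT0 library. Against ZT24 the same held in DRF (54.9 to 69.3 CPM at ZT24) but not in NRF (56.1 to 66.1 CPM at ZT24). The rhythm passed narrowly in DRF (peak at ZT14.8, swing 0.23 ± 0.08 log2 units, limma adjusted p = 0.0314), and gave 0.13 ± 0.08 in NRF (adjusted p = 0.47).

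The Parp1 call was lost under 5 settings. The swing was 0.07 log2 units by total reads (adjusted p = 0.423) and 0.14 with a slow-fibre covariate (0.196), against 0.23 with the authors' library sizes. It was 0.21 without ZT0 (0.0941) and 0.21 without ZT24 (0.0863). On the log2 scale of the deposited score, which is compressed, it was 0.05 (0.131). Leaving out any 1 of 5 DRF libraries (ZT0 replicate 3, ZT4 replicate 1, ZT16 replicates 3 and 4, ZT24 replicate 1) gave 0.0516 to 0.0878. The 12 h equality was rejected for Parp1 (adjusted p = 0.0168), and that call was lost under the same 5 settings (0.0864 to 0.253). Parp1 deviations ran against the slow-fibre score (r = -0.627, rho = -0.593, permutation p = 4e-05 for r, adjusted 0.00054), the endothelial score (r = -0.642, adjusted p = 0.00208) and the red blood cell score (r = -0.434, adjusted p = 0.0298). By Pearson's r these 8 relations of Nnmt, Sirt3 and Parp1 were past the adjusted threshold. By Spearman's rho alone so were Nampt with the fibroblast score (adjusted p = 0.037), Sirt1 with the muscle fibre score (0.0471), and Nnmt (0.0471) and Parp1 (0.0499) with the macrophage score. For Nmrk2 with the slow-fibre score r was -0.104 over all libraries, 0.170 within DRF and -0.387 within NRF. With the adipocyte score it was -0.129 over all libraries, -0.011 within DRF and -0.306 within NRF. The endothelial markers had called rhythms themselves, 4 of 4 in DRF and 3 of 4 in NRF, beside 48.7% and 15.1% of all tested genes. Their mean sum was lowest at ZT12 in DRF (204 CPM) and at ZT16 in NRF (227 CPM). The part of cell makeup in the Nnmt, Sirt3 and Parp1 values was not tested further.

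At single times no member passed limma's adjusted threshold, and 7 of 63 member-by-time differences had an unadjusted p under 0.05. Of all tested genes 1.85% were called at ZT0, 0.973% at ZT4, 0.208% at ZT8, 3.5% at ZT12, 10.8% at ZT16, 2.96% at ZT20 and 5.56% at ZT24. For Nmrk2 the log2 difference was -1.07 ± 0.31 (SE) at ZT8 (adjusted p = 0.172) and 0.95 ± 0.31 at ZT20 (0.0813). As a check of repeatability, the last time was set against the first in both regimens (ZT24 minus ZT0), and limma called no member, with 0 of 18 at an unadjusted p under 0.05, beside 0.274% of genes in DRF and 0% in NRF (934 genes at an unadjusted p under 0.05). The Nmrk2 difference between ZT24 and ZT0 was 0.024 ± 0.31 log2 units in DRF and -0.14 ± 0.31 in NRF.

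Of 18 further genes of NAD synthesis and handling, 9 were expressed highly enough to be tested. The rhythm test passed for 4 of these 9 in DRF (Pnp, Nt5e, Nadk2 and Afmid), beside 48.7% of all tested genes. It passed for 1 in NRF (Pnp), beside 15.1% of all tested genes. Pnp, purine nucleoside phosphorylase, which splits nicotinamide riboside, had decimal counts and a peak at ZT18.0 in DRF and ZT15.2 in NRF with a swing of 0.87 log2 units in each. Nadk2, the mitochondrial NAD kinase, peaked at ZT5.11 in DRF (swing 0.35, limma adjusted p = 0.00596). The clock-time difference passed for none of the 9 by limma, beside 13.1% of all tested genes, with 2 at an unadjusted p under 0.05. The average passed for none, beside 15.9% of all tested genes, with 0 unadjusted. The median swing of these 9 was 0.34 log2 units in DRF and 0.14 in NRF, beside 0.26 and 0.16 over all tested genes.

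Of 23 further NAD-consuming enzymes 21 were tested. The rhythm test passed for 6 of the 21 in DRF and 3 in NRF, beside 48.7% and 15.1% of all tested genes. The clock-time difference passed for 1, Parp4, beside 13.1% of all tested genes. Parp4 had a peak at ZT9.82 in NRF (swing 0.36, limma adjusted p = 0.0156) and a fitted peak at ZT3.23 in DRF that missed the rhythm test (0.27, 0.0599). On average 3 were higher in DRF: Sirt2, a cytosolic deacetylase (0.14 ± 0.03 log2 units), Parp3 (0.12 ± 0.03) and Art1 (0.12 ± 0.04, decimal counts). A further 4 were lower, Parp14 (-0.28 ± 0.08), Parp8 (-0.17 ± 0.05) and the tankyrases Tnks (-0.14 ± 0.04) and Tnks2 (-0.16 ± 0.05). Of all tested genes 15.9% passed the average test. No sign turned under another scaling, but the 3 higher genes missed the threshold by total reads (0.04 to 0.07, adjusted p = 0.0566 to 0.459), Art1 missed it by quantiles (0.0835), and Parp8, Tnks, Tnks2 and Art1 missed it with the length trend removed (0.101 to 0.387). Aox1, an oxidase that acts on methylated nicotinamide, had a rhythm in DRF (peak at ZT21.7, swing 0.47, adjusted p = 0.0151) and no call in NRF (0.633).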

How the data were processed

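Polyadenylated RNA of 56 gastrocnemius libraries was read as paired ends, per the labels' protocols. Per the submitters' processing notes the tools were HISAT2, Bowtie2 and RSEM and the builds mm10 and GRCm38.p6; no versions are stated in the sources used here. Expression was deposited by the authors as a table headed TPM whose values are a score; its form, inferred from the values, is a factor times log2(1 + 1000000 × count / library size) / gene length. It was inverted gene by gene to read counts for 17443 genes (15440 with whole counts within 0.02, 2003 with decimal counts, as when reads are split between loci), while 1629 genes had fewer than 4 values above 0. Totals were 28173235 to 36183625 reads. The labels do not say that counting used strand, so overlapping antisense transcripts cannot be told apart. CPM used the authors' library sizes, which were inferred from the deposited values and were 0.854 to 1.21 times these totals. The authors also deposited rhythm tables with p-values and q-values, phases in hours, amplitudes as a score and relative amplitudes as a ratio. Unused columns numbered 0.

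Genes with a mean of at least 1 CPM were fitted with limma 3.58.1 in R 4.3.3 (trended eBayes) on log2(CPM + 1), which understates folds of low genes, over all 14 groups. Rhythm used 24 h cosine and sine terms per regimen, and SEs of peaks used the delta method. The script was tested on simulated data. The average counted ZT0 and ZT24 together as 1 time. The named genes were the 9 members, pathway genes past the clock-time or average test with counts for the rest, the 5 most like Nampt and Nmrk2, and 5 clock or fasting genes. Pnp, Nt5e, Nadk2, Afmid and Aox1 were added after their values were seen. Members and lists were chosen with earlier results of these data known. The alternatives were other pseudocounts, no filter, other scalings, the deposited score, a replicate block, library weights, a gene-length trend, marker covariates, 12 h terms, and leaving out times or libraries.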

Additional observations from a re-analysis of the deposited data

Results flagged for a closer look

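In each group of 4 libraries the highest or lowest CPM of each member was compared with the other 3, and a library was singled out where its gap to the nearest other was past Dixon's critical value at 95%. Of 126 groups 11 were singled out, and chance alone gives about 1 in 20. Nmrk2 had 1 high NRF ZT12 library at 31.2 CPM, against 17.5 to 19.6 in the others. Nampt had 1 low NRF ZT20 library at 103 CPM (others 158 to 164), and the same library, replicate 4, was high for Nmnat3 at 19.4 CPM (others 14.2 to 14.8). Without that library the Nampt average over the day was -0.18 log2 units (adjusted p = 0.00493, limma).

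Sirt3 had 1 high DRF ZT20 library at 23.1 CPM (others 11.9 to 13.2), and this library, replicate 1, held 3377 CPM of slow-fibre markers, against 30.4 to 906 CPM in the others. Nnmt had 1 high NRF ZT12 library at 6.08 CPM (others 2.64 to 2.87), with 616 CPM of adipocyte markers against 299 to 369 CPM, 121 CPM of macrophage markers against 43.9 to 60.2 CPM and 3135 CPM of fibroblast markers against 1323 to 2038 CPM. Nnmt also had low libraries at 2.09 CPM in NRF ZT0 and 1.32 CPM in NRF ZT24. Nmrk1 was low in 1 DRF library each at ZT8 (4.55 CPM) and ZT24 (3.90 CPM). Sirt1 was low in 1 DRF ZT24 library (8.95 CPM), and Parp1 in 1 DRF ZT4 library (61.0 CPM).

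The Nmrk2 rhythm differed between regimens by its own test of the whole curve (limma adjusted p = 4.85e-04). The fitted peak came earlier in DRF (shift -4.71 h, DRF minus NRF, 95% interval -6.53 to -2.90 h). The swing (fitted peak minus trough) taken alone differed by -0.64 log2 units, DRF minus NRF. The 95% interval of that swing difference, -1.29 to 0.01, did not exclude equal swings.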

How the results depend on the processing

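Over the 45 member results and 70 alternatives, 56 of which left out 1 library each, 3046 of 3141 values were counted as unchanged. That count took in the side of the threshold and, for averages over the day, the sign. A fitted swing has no sign. The sign of a swing difference was not counted, and it turned in some settings for Nmnat1, Nmnat3, Nnmt and Sirt3. The numbers did not pair libraries: same-numbered libraries of different groups had a mean correlation of deviations of -0.017, against 0.0058 for other numbers, and 8 of 56 correlated best with their own number. The replicate block kept every member call, with 5751 rhythm calls in DRF, 1760 in NRF, 1483 clock-time differences and 1803 averages.

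Members called, by setting, with calls over the 12025 tested genes in brackets. Scaling by total reads called 3 members on average (3499 genes) and 1 at a single time (4201 calls over all times). It called 6 genes between ZT24 and ZT0. Quantile normalization called 1 member at a single time (2939 calls) and 85 genes between ZT24 and ZT0. Library weights called 2 members in NRF (2837 genes) and 2 for the clock-time difference (2687 genes). They also called 1 at a single time (4280 calls) and 3 genes between ZT24 and ZT0. Removing the length trend called 0 members on average (939 genes). The adipocyte covariate called 1 member at a single time (4234 calls) and 1321 genes between ZT24 and ZT0. Without ZT0, 2 members were called in NRF (1472 genes) and 3 after the 12 h move (4989 genes). Without ZT24, 3 were called after the 12 h move (4753 genes) and 0 on average (1058 genes), with 1017 clock-time differences. A slow-fibre covariate, chosen after seeing the data, gave 2 members after the 12 h move (4866 genes). It gave 2411 clock-time differences, 5053 single-time calls and 87 between ZT24 and ZT0.

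Average differences near 0 changed sign, none of them called except Parp1: by total scaling Nmnat1 -0.047, Nmnat3 -0.061, Nmrk1 -0.050, Nmrk2 -0.063 and Parp1 -0.063 (adjusted p = 0.0323); by the deposited score Nmnat3 -0.0012 and Parp1 -0.0020; by quantiles Nnmt 0.013; by weights Nmrk2 -0.014 and Nnmt 0.0083; by the length trend Nmrk1 -0.00019 and Nmrk2 -0.038; without ZT0 Nnmt 0.034; without ZT24 Nmrk2 -0.0026. Cause was not tested.

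Leaving out 1 library gave 0 to 1 members on average (lowest 1269 genes, NRF ZT20 replicate 3 left out; highest 2917 genes, replicate 4 of that group left out), 0 to 2 at single times (1891 genes without DRF ZT16 replicate 3 to 4278 without NRF ZT20 replicate 4), 0 (without DRF ZT0 replicate 4) to 245 genes (without DRF ZT20 replicate 1) between ZT24 and ZT0, and averages of -0.035 to 0.072 for Nmrk2, -0.061 to 0.021 for Nnmt and -0.00029 to 0.028 for Parp1. The Nampt average was lost without DRF ZT4 replicate 2, DRF ZT16 replicate 3, DRF ZT20 replicate 1, NRF ZT4 replicate 1, NRF ZT8 replicate 2 or any of NRF ZT20 replicates 1 to 3 (adjusted p = 0.0503 to 0.0636). The Nnmt 12 h call was lost without DRF ZT0 replicates 1 to 3, DRF ZT4 replicate 2, DRF ZT12 replicate 4, DRF ZT16 replicates 1, 2 and 4, NRF ZT4 replicate 1, NRF ZT12 replicate 3, NRF ZT16 replicates 1 to 3 or NRF ZT24 replicate 1. The fit with 12 h terms gave no average or single-time value, and leaving out ZT0 or ZT24 gave none between those times.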
